A study of Mus musculus with 8 samples.

Results

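The glucocorticoid receptor gene Nr3c1 and 9 genes tied to its action were followed in dermal fibroblasts of mice on 2 diets. The list holds 10 genes named by symbol, from the receptor and the enzyme that makes its ligand to genes that glucocorticoids induce. Of these, 9 had a probe set naming the gene alone, among 17097 genes measured, and they were read by 23 probe sets in all. Mt2 is named by no probe set of the annotation used and was not analysed here.

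The fibroblasts came from female mice, killed on 1 day, that had spent 6 months from the age of 2 months on high fat food (High Fat Diet, HFD) or on control food (Normal Diet, ND). Cells of the dermis, freed of the tissue below and digested with collagenase, were sorted as positive for Pdgfra and CD34 and negative for CD45, CD117, CD24, CD31 and EpCam. Each sample was 10000 cells, whose RNA went through 20 cycles of amplification before hybridisation to a mouse expression array. The comparison sets HFD 1 to 4 (n = 4) against ND 1 to 3 (n = 3). The labels exclude ND 4 by quality control, and its values are given for some genes only. The sources used here do not give the strain, and specimens were treated as different mice.

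Glucocorticoids are steroid hormones that enter cells and bind a receptor held ready by heat shock chaperones. The bound receptor moves to the nucleus, where it switches on some genes through palindromic DNA elements and holds down many inflammatory genes. In skin these hormones restrain inflammation and limit fibroblast growth and collagen production, and fibroblasts can make active hormone from its inactive form.

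Values are log2 signals, so a difference of 1 is a doubling, and differences are HFD minus ND with the standard error (SE). Tests are limma's moderated test with p-values adjusted by Benjamini-Hochberg over all genes, and a gene passed at an adjusted p under 0.05. The quartiles of the 8 arrays lay within 0.04 of each other. The sorted identity was borne by Cd34, at 12.1 ± 0.05 (SD, n = 4) in HFD and 12.08 ± 0.02 (SD, n = 3) in ND, while Pdgfra had a weak signal of 6.27 in HFD and 5.92 in ND. In pooled cells, fewer cells of a type and less RNA per cell cannot be told apart.

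Among the 9 genes, the serum- and glucocorticoid-regulated kinase Sgk1 rose in HFD, by 1.41-fold. The other 8 did not pass, and none fell (0 lower, with 2 lower at an unadjusted p under 0.05). Over all 17097 genes, 3777 were at an unadjusted p under 0.05, 2096 higher and 1681 lower. Counts at that level in the lists below are to be set beside this. Of all genes tested, 5.35% passed, 2.62% higher and 2.73% lower, so 1 of 9, or 11.1%, is close to the background for a list this short. The median difference of the 9 genes was 0.22, with 6 positive and 3 negative, beside a median of 0.02 over all genes. Without overlap between the diets were Sgk1 and the leucine zipper gene Tsc22d3, both higher in HFD, and the phosphatase gene Dusp1 and the transcription factor gene Klf9, both lower. These 4 are 44.4% of the 9 genes, where 17.9% of all genes had diets that did not overlap.

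**Figure D1:**
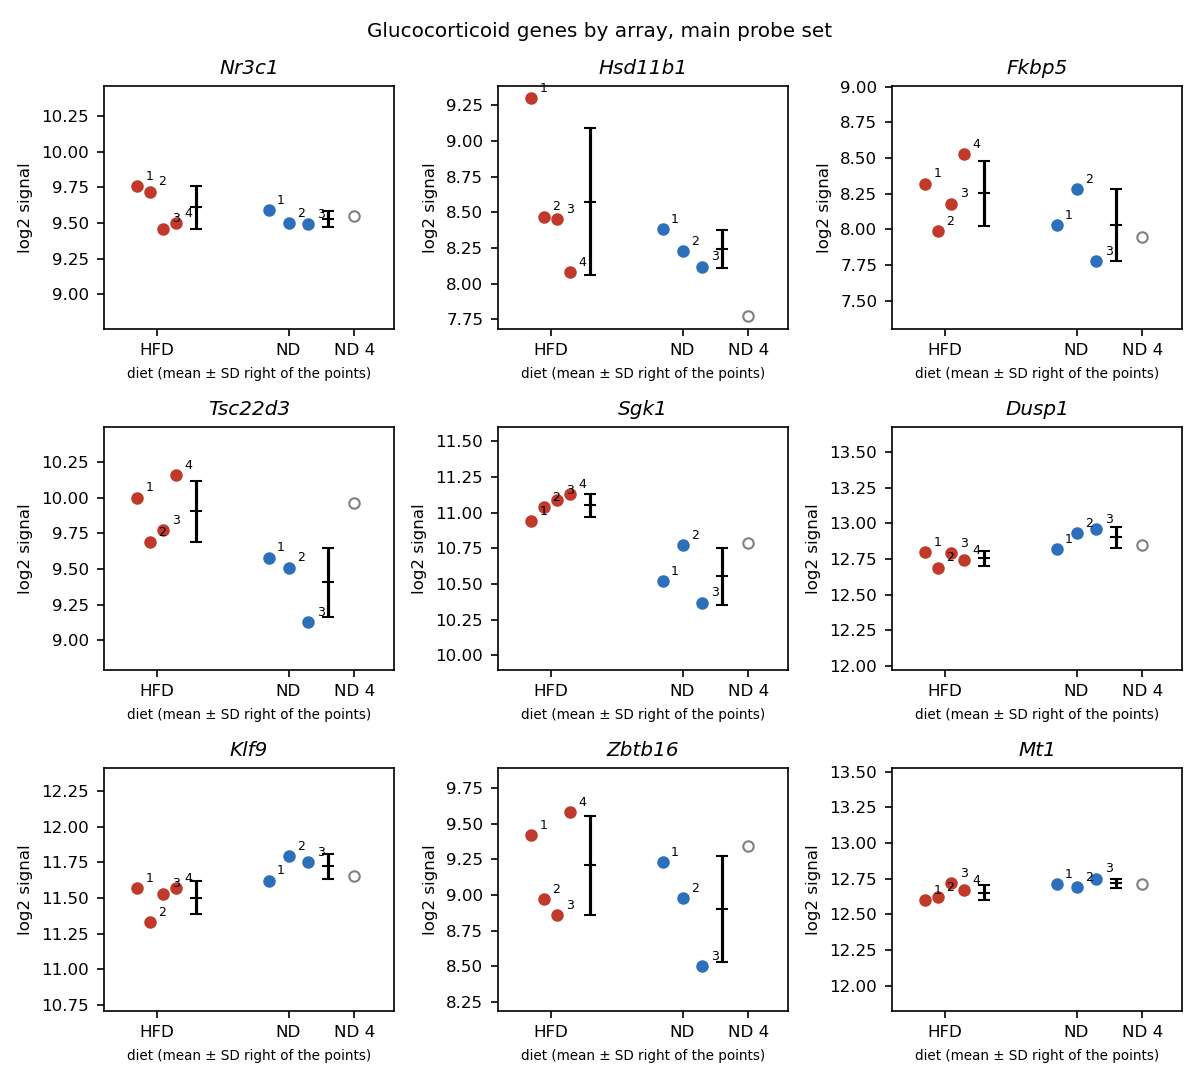
Log2 signal (vertical axes, all of the same span) of the main probe set of 9 glucocorticoid genes in HFD (red, 4 arrays) and ND (blue, 3 arrays), numbered by specimen, with mean ± SD to the right of the points. The open circle is ND 4, which is in no mean; the diets separate for Tsc22d3, Sgk1, Dusp1 and Klf9.

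Nr3c1, the receptor itself, read 9.76, 9.72, 9.46 and 9.5 in HFD 1 to 4, against 9.59, 9.5 and 9.49 in ND 1 to 3. HFD 1 and 2 lay above all ND arrays while HFD 3 and 4 lay among or below them, so the diets overlapped. The difference was 0.08 (SE 0.10, adjusted p = 0.687), with a 95% interval of -0.13 to 0.30. The other 4 probe sets of Nr3c1 did not pass either. Of these, 2 were higher in HFD, by 0.30 (SE 0.13, unadjusted p = 0.047) and 0.32 (SE 0.13, unadjusted p = 0.0327). The other 2 had negative differences, of -0.04 and -0.09. The one at -0.04 was bright too (9.28 in HFD and 9.32 in ND), and the one at -0.09 was dim (6.03 in HFD and 6.12 in ND). Over the 7 arrays the genes with values most like those of Nr3c1 were Atg7, Hdac10 and Mthfd1. Once each gene was centred on its own mean, the largest departure from Nr3c1 was 0.0743 in Atg7 and 0.0757 in Hdac10 and Mthfd1. These were the closest among 8454 genes that vary at least as much as Nr3c1.

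Hsd11b1 encodes the reductase that turns inactive 11-keto steroid into active hormone inside the cell. It read 9.3, 8.47, 8.45 and 8.08 in HFD 1 to 4, against 8.38, 8.23 and 8.12 in ND 1 to 3. HFD 1 stood alone at the top and HFD 4 lay below every ND array of the comparison. The difference was 0.33 (SE 0.23, adjusted p = 0.45), and without HFD 1 it was 0.09 (SE 0.13, adjusted p = 0.723). The excluded array ND 4 had the lowest value of all, 7.77.

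Sgk1, a kinase that acts on ion channels and on FOXO factors, is induced by glucocorticoids within minutes to hours in many cells. It is read by a single probe set. The HFD arrays gave 10.94, 11.04, 11.09 and 11.13, against 10.52, 10.77 and 10.37 in ND 1 to 3. Every HFD array was above every ND array, and the SD was 0.08 in HFD and 0.20 in ND. The rise was 0.50 (SE 0.10, adjusted p = 0.0283), with a 95% interval of 0.28 to 0.71. The excluded array ND 4 read 10.79, also below every HFD array, and with it among the ND arrays the difference was 0.44 (SE 0.10, adjusted p = 0.15).

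The call for Sgk1 depended on single arrays. Its sign could not, since the diets do not overlap. It was kept without ND 1 (adjusted p = 0.0495), ND 2 (adjusted p = 0.0316) or HFD 1 (adjusted p = 0.0271). It was lost without ND 3 (0.41, adjusted p = 0.105), HFD 2 (0.50, adjusted p = 0.0589), HFD 3 (0.48, adjusted p = 0.0758) or HFD 4 (0.47, adjusted p = 0.0886). The genes called in the whole table numbered 914 with all 7 arrays, and 11, 212, 6 and 9 without ND 3, HFD 2, HFD 3 and HFD 4.

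One of the start sites of Sgk1 lies beside a perfect glucocorticoid response element, the palindrome that the receptor dimer binds, and its sequence is shown because Sgk1 is the member that passed. RefSeq (GRCm38.p6) gives 6 start windows for Sgk1, each with 250 bases before the start and 50 after it. The letters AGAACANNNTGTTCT, a palindrome read alike on both strands, were found in 1 of them, 189 bases before that start. This window is at chr10:21993640-21993939 on the plus strand, and the element is in capitals.
Sgk1: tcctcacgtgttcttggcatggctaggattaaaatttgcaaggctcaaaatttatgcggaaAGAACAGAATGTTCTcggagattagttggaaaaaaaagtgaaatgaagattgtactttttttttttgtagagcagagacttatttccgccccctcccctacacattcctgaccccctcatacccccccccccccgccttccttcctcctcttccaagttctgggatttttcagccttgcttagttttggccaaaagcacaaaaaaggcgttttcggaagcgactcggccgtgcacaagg
The same letters occurred in 3 of 32851 RefSeq start windows, or 0.00913%. Of the 10 listed genes, 8 had at least 1 window, 15 windows in all, and Nr3c1 and Zbtb16 were not searched. A match describes these letters and is not evidence of binding in fibroblasts, and windows without one say nothing of elements farther away.

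Tsc22d3 encodes GILZ, a leucine zipper protein through which glucocorticoids dampen inflammatory signalling. It read 10, 9.69, 9.77 and 10.16 in HFD 1 to 4, against 9.58, 9.51 and 9.13 in ND 1 to 3. The lowest HFD array was 9.69 and the highest ND array 9.58, so the diets were separate by a narrow margin. The difference was 0.50 (SE 0.14, unadjusted p = 0.00504), as large as that of Sgk1, but with an adjusted p = 0.0668 it did not pass. The excluded array ND 4 read 9.96, inside the HFD range. A second bright probe set of Tsc22d3 differed by 0.53 (SE 0.21) and a dimmer one by 0.12 (SE 0.11), so all 3 had the same sign. One arm of the receptor's palindrome, AGAACA on either strand, was found in 1 of its 3 start windows and in 19% of all windows.

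Fkbp5 encodes FKBP51, a co-chaperone that glucocorticoids induce and that lowers the receptor's affinity for hormone. Its main probe set read 8.32, 7.99, 8.18 and 8.53 in HFD 1 to 4, against 8.03, 8.28 and 7.78 in ND 1 to 3. The diets overlapped, and the difference was 0.22 (SE 0.15, adjusted p = 0.42). A second probe set of almost the same brightness separated them, at 8.23, 8.07, 8.36 and 8.69 in HFD, against 8.01, 8.0 and 7.52 in ND. There the difference was 0.49 (SE 0.16, unadjusted p = 0.013), with an adjusted p = 0.118 over all 45141 probe sets, of which 3.54% passed. The third probe set of Fkbp5, at 4.41 in HFD and 4.36 in ND, lay below the first quartile of all probe sets (4.99).

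Zbtb16 encodes PLZF, a zinc finger repressor that is strongly induced by glucocorticoids in several cell types. It read 9.42, 8.97, 8.86 and 9.58 in HFD 1 to 4, against 9.23, 8.98 and 8.5 in ND 1 to 3, and the diets overlapped. The difference of the main probe set was 0.30 (SE 0.20, adjusted p = 0.434). The second, dimmer probe set of Zbtb16 went the other way, with 7.93, 7.59, 7.39 and 7.85 in HFD against 8.29, 7.89 and 8.03 in ND. Its difference was -0.38 (SE 0.15, unadjusted p = 0.026, adjusted p = 0.171).

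Klf9 encodes a Kruppel-like transcription factor that responds to glucocorticoid and thyroid hormone and restrains proliferation. Its main probe set read 11.57, 11.33, 11.53 and 11.57 in HFD 1 to 4, against 11.62, 11.79 and 11.75 in ND 1 to 3. All HFD arrays were below all ND arrays, by a difference of -0.22 (SE 0.08, adjusted p = 0.13) that did not pass. A second probe set of Klf9 showed a fall that passed, the one such fall among the 23. It read 10.48, 10.07, 10.18 and 10.27 in HFD, against 10.74, 11.07 and 10.97 in ND. This is a difference of -0.68 (SE 0.11, adjusted p = 0.0252 over all probe sets). The call was kept without HFD 1 (adjusted p = 0.0206), ND 1 (adjusted p = 0.0211) or ND 2 (adjusted p = 0.0472), and lost without each other array, with adjusted p-values of 0.0565 without HFD 2, 0.0716 without HFD 3, 0.0795 without HFD 4 and 0.1 without ND 3. The remaining 3 probe sets of Klf9 differed by -0.21 (SE 0.12), 0.29 (SE 0.20) and -0.02 (SE 0.09), so the 5 did not give one direction.

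Dusp1 encodes a phosphatase that turns off stress-activated MAP kinases. It had a strong signal, at 12.8, 12.69, 12.79 and 12.74 in HFD 1 to 4, against 12.82, 12.93 and 12.96 in ND 1 to 3. The HFD arrays were lower by a narrow margin, with a difference of -0.15 (SE 0.05, adjusted p = 0.138). Dusp1 is also an immediate early gene that tissue digestion can switch on. Of 17 measured genes of that kind (dissociation and immediate early genes), 0 passed in limma. At an unadjusted p under 0.05 were 3, beside 3777 of all 17097 genes. These 3 were Klf4 (-0.19, adjusted p = 0.0769), Btg2 (-0.18, adjusted p = 0.166) and Ier2 (0.25, adjusted p = 0.181), and the median of the 17 was -0.07.

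Mt1 encodes metallothionein 1, a small cysteine-rich protein that binds zinc and copper and is induced by metals as well as by glucocorticoids. Its main probe set read 12.6, 12.62, 12.72 and 12.67 in HFD 1 to 4, against 12.71, 12.69 and 12.75 in ND 1 to 3. The diets overlapped near the top of the signal scale, and the difference was -0.06 (SE 0.05, adjusted p = 0.517). A second, dimmer probe set of Mt1 read 10.65, 10.87, 10.91 and 10.82 in HFD, against 10.57, 10.62 and 10.58 in ND. Here HFD was higher without overlap, by 0.22 (SE 0.08, unadjusted p = 0.018, adjusted p = 0.141), and ND 4, at 10.94, was higher still.

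The start window of Mt1, at chr8:94178839-94179138 on the plus strand, is shown as a contrast to Sgk1. It holds letters of a relaxed form of the same palindrome and of the metal response element core. As for Sgk1, a match is not evidence of binding in fibroblasts. Capitals mark, from left to right, the letters GNACANNNTGTNC at 94 bases before the start and 3 cores of the metal response element. These cores are TGCGCNC or TGCACNC on either strand. The first core begins 23 bases before the start and the others begin after it.
Mt1: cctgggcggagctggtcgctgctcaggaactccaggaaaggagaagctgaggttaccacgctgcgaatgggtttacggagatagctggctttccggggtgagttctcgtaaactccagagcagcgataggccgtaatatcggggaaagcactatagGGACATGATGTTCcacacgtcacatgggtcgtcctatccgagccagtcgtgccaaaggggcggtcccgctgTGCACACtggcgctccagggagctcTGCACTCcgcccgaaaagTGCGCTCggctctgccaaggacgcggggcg
The relaxed palindrome contains the perfect one and was found in 0.475% of all windows, and among the listed genes in windows of Sgk1 and Mt1. A metal core was found in 25.7% of all windows. Among 10 measured genes of the metal response 0 passed in limma, with 1 at an unadjusted p under 0.05, and their median difference was 0.02. The zinc importer Slc39a14 differed by 0.33 (adjusted p = 0.206), the metal-sensing factor Mtf1 by 0.16 (adjusted p = 0.325) and Mt4 by -0.09 (adjusted p = 0.376).

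**Figure D2:**
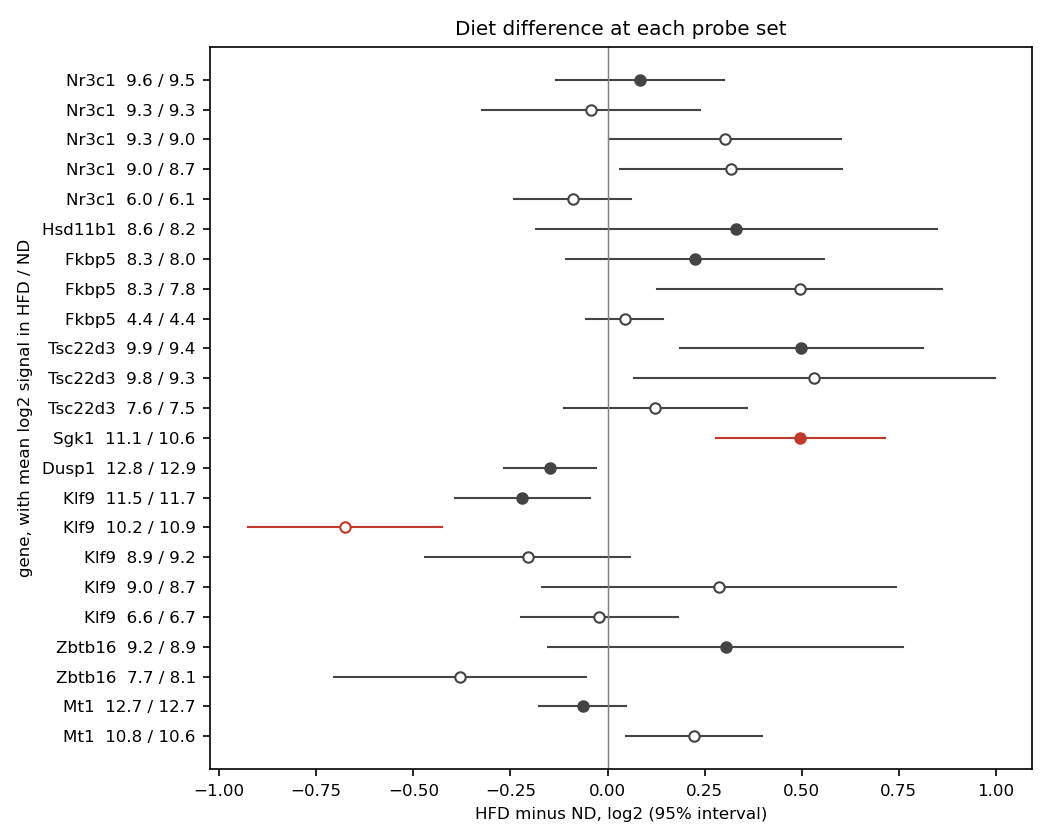
HFD minus ND in log2 (horizontal axis) with 95% intervals for the 23 probe sets of 9 glucocorticoid genes, one per line with its mean signal in HFD and ND. Filled points are main probe sets and red marks an adjusted p under 0.05, reached by Sgk1 (0.50) and by a second Klf9 probe set (-0.68).

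Over the probe sets, 6 of the 9 genes could be checked against themselves. In Fkbp5 and Tsc22d3 all probe sets had a positive difference, while in Nr3c1, Klf9, Zbtb16 and Mt1 the signs were mixed. The files do not say which transcripts each probe set reads, and why they differ was not tested.

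Of the 9 genes, 4 shared a pattern between single arrays. HFD 4 was the highest and ND 3 the lowest of the 7 arrays in Fkbp5, Tsc22d3, Sgk1 and Zbtb16. That is 44.4% of the 9 genes, where 6.64% of all genes had HFD 4 highest and ND 3 lowest. Among the probe sets of all 9 genes it held for 7 of 23, or 30.4%, beside 5.84% of all probe sets. These included both bright probe sets of Fkbp5 and of Tsc22d3 and the Klf9 probe set that was higher in HFD (9.41 in HFD 4 and 8.43 in ND 3). The main probe sets of Nr3c1, Hsd11b1, Dusp1, Klf9 and Mt1 did not have it. The pattern was noticed after the values were seen.

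**Figure D3:**
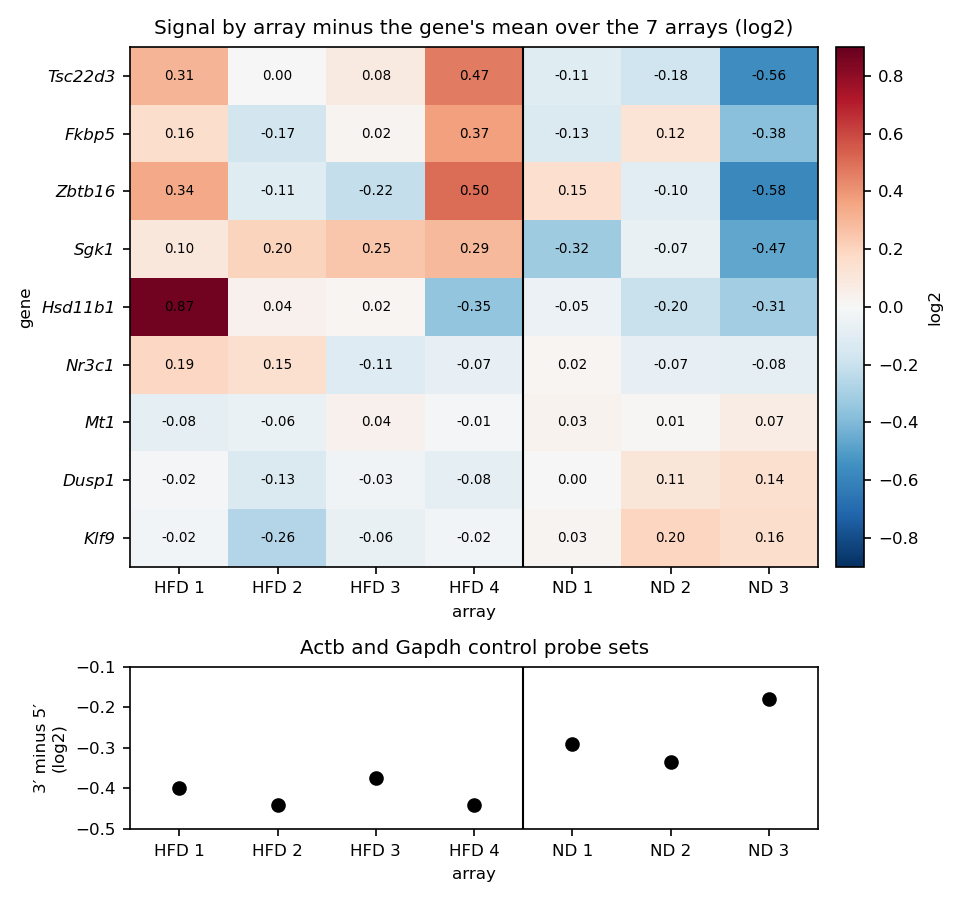
Upper panel, log2 signal of 9 glucocorticoid genes in each of 7 arrays minus the gene's mean over them (red above, blue below). Lower panel, the mean 3′ minus 5′ difference (log2) of the Actb and Gapdh control probe sets; ND 3, lowest in Tsc22d3, Fkbp5, Zbtb16 and Sgk1, has the highest 3′ minus 5′ value, -0.18.

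With both of these arrays left out, a setting added after seeing the data, the difference was 0.38 in Sgk1 (SE 0.10), 0.28 in Tsc22d3 (SE 0.12), 0.01 in Fkbp5 (SE 0.14) and -0.02 in Zbtb16 (SE 0.17). None of them passed then, where 0 genes of the whole table did. These genes were picked by the values of these arrays, so leaving both out could only lower their differences. In Sgk1 and Tsc22d3 the diets do not overlap, so the positive sign over the 5 remaining arrays was fixed beforehand. Fkbp5 and Zbtb16 were close to 0.

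The 3′ minus 5′ difference of the Actb and Gapdh control probe sets, a sign of RNA integrity, also differed between the diets. It was -0.4, -0.44, -0.375 and -0.44 in HFD 1 to 4, against -0.29, -0.335 and -0.18 in ND 1 to 3. The diets did not overlap in it, and ND 3 stood farthest from HFD. HFD 4 shared its value with HFD 2. In the main probe sets the lowest HFD array was HFD 2 for Tsc22d3 and Fkbp5, HFD 1 for Sgk1 and HFD 3 for Zbtb16. With this measure as a covariate the difference was 0.20 in Sgk1 (SE 0.15), 0.13 in Tsc22d3 (SE 0.22), -0.15 in Fkbp5 (SE 0.24) and -0.27 in Zbtb16 (SE 0.32), and none passed (adjusted p = 0.999 each). Since this measure separates the diets, it and the diet cannot be told apart in these values.

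Keratinocyte markers were also higher in HFD, with all 15 measured markers positive and 0 past the threshold in limma (3 at an unadjusted p under 0.05). The log2 of their summed level ranged from 10.9 to 12.8 in HFD and from 10.8 to 11.5 in ND, and an array gives no marker a zero. With the keratinocyte mean as a covariate the difference was 0.49 in Sgk1 (SE 0.12, adjusted p = 0.104), 0.59 in Tsc22d3 (SE 0.17), 0.36 in Fkbp5 (SE 0.17) and 0.43 in Zbtb16 (SE 0.24). Of 9 blood markers Tyrobp rose (0.32, adjusted p = 0.0352), while 7 had negative differences and the median of the list was -0.02. No endothelial or adipocyte marker passed (6 and 3 measured, with 0 at an unadjusted p under 0.05 in both lists). Another 3 listed adipocyte markers were not measured. Those measured were dim, with a mean of 4.74 in HFD and 4.73 in ND. Of 5 pericyte and muscle markers 0 passed in limma, with Des at 0.49 (adjusted p = 0.168). Of 10 fibroblast markers the proteoglycan Lum fell by 0.34 (adjusted p = 0.0358), 9 did not pass, among them Pdgfra at 0.34 (adjusted p = 0.103), and the median was 0.02.

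**Figure D4:**
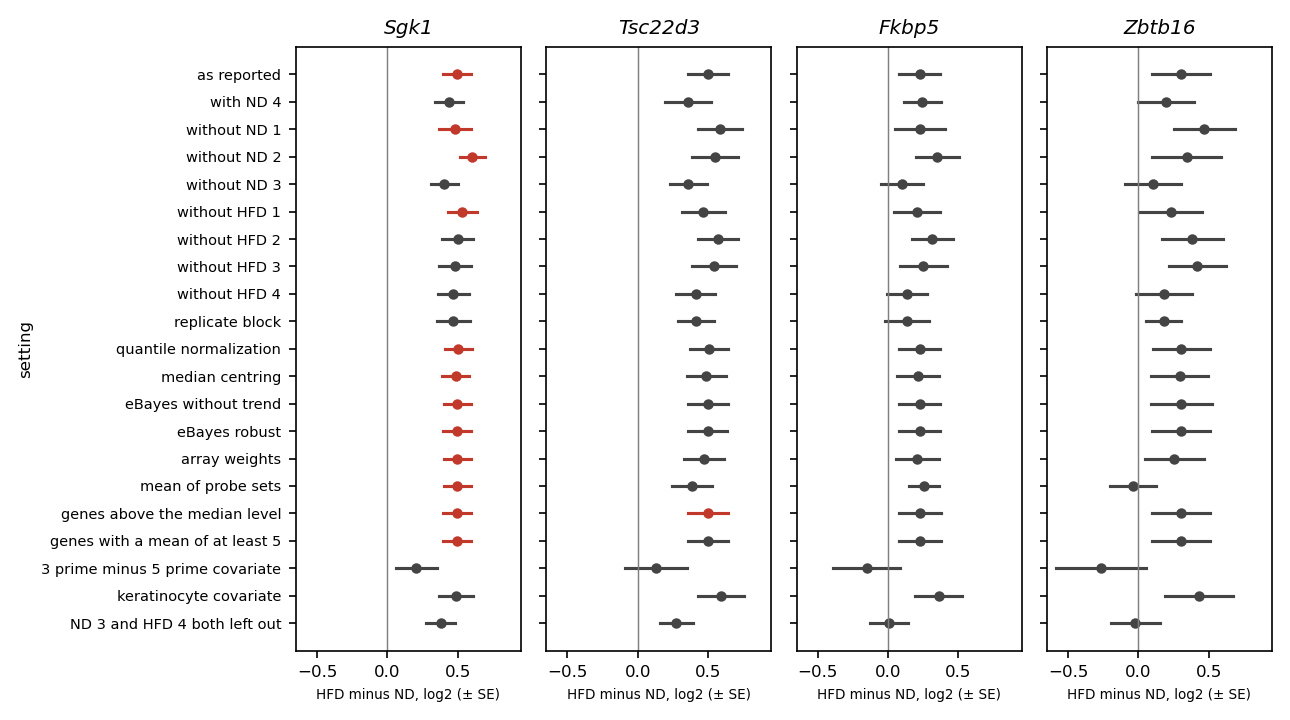
HFD minus ND in log2 ± SE (horizontal axes) of Sgk1, Tsc22d3, Fkbp5 and Zbtb16 as reported and under other settings (one per line, thresholds left out). Red marks an adjusted p under 0.05; Sgk1 stayed between 0.20 and 0.61, while Fkbp5 and Zbtb16 crossed 0.

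Apart from the members, 6 lists with 94 measured genes were read, of which 2 were higher and 4 lower. This is 6.38%, beside 5.35% of all genes. The 94 are called pathway genes below, but include the 10 metal response and 17 dissociation and immediate early genes. Of those, 0 passed, so all the calls lie in the remaining lists. Of 14 measured receptor chaperones and coregulators, 3 fell, 0 rose and 11 did not pass, with 11 of 14 differences negative and a median of -0.09. The coactivator Ncoa3 (SRC-3) read 10.69, 10.9, 10.79 and 10.55 in HFD, against 11.21, 11.02 and 11.42 in ND. It fell by 0.48 (SE 0.11, adjusted p = 0.0385). Ptges3, the p23 co-chaperone that steadies the hormone-binding form of the receptor, fell by 0.44 (SE 0.11, adjusted p = 0.0493). This call was at the edge. In the limma fit over all probe sets the same probe set had an adjusted p = 0.058. After quantile normalization the gene had an adjusted p = 0.0532. The Mediator subunit Med1, which links nuclear receptors to RNA polymerase, fell by 0.44 (SE 0.10, adjusted p = 0.0364).

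Other probe sets limit these 3 calls. A second probe set of Ncoa3 differed by -0.04 (SE 0.08) and one of Ptges3 by -0.06 (SE 0.10). In Med1, 3 of the 5 probe sets had negative differences, of -0.44, -0.27 and -0.23, and 2 had positive ones. A dimmer probe set of Med1 rose by 0.88 (SE 0.11, adjusted p = 0.0185 over all probe sets), at 8.56, 8.58, 8.54 and 8.72 in HFD against 7.93, 7.74 and 7.5 in ND. In that probe set the excluded array ND 4 read 8.62, inside the HFD range. ND 4 also lay inside the HFD range of the main probe sets, at 10.75 in Ncoa3, 10.92 in Ptges3 and 8.71 in Med1. The mean over the 5 probe sets of Med1 differed by 0.005 (SE 0.07, adjusted p = 0.982). Without ND 3 none of the 3 passed, with adjusted p-values of 0.151 for Ncoa3, 0.19 for Ptges3 and 0.141 for Med1. Nor did any of them pass without HFD 2, HFD 3 or HFD 4. With 1 array left out, Ncoa3 was kept only without ND 2. Ptges3 and Med1 were kept only without ND 1 or HFD 1. With the 3′ minus 5′ covariate the differences were -0.18 in Ncoa3, -0.20 in Ptges3 and -0.22 in Med1 (adjusted p = 0.999 each).

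Of 26 measured other genes that glucocorticoids induce, 1 rose, 1 fell and 24 did not pass, with a median of 0.004. Anxa1, annexin A1, which mediates part of the hormone's action against inflammation, read 11.17, 11.45, 11.25 and 11.18 in HFD, against 10.87, 11 and 10.68 in ND. It rose by 0.41 (SE 0.10, adjusted p = 0.0411), and without ND 3 the difference was 0.33 (adjusted p = 0.158). The call was kept without ND 2 or HFD 1 and lost without each other array. For Anxa1 the excluded array ND 4 read 11.12, below every HFD array. The repressor Bcl6 read 10.01, 10.28, 9.93 and 9.78 in HFD, against 10.56, 10.42 and 10.7 in ND, and fell by 0.56 (SE 0.12, adjusted p = 0.0329; without ND 3, -0.49, adjusted p = 0.134). The call for Bcl6 was also lost without ND 1, HFD 3 or HFD 4, and ND 4 read 10.08, inside the HFD range. Its second probe set differed by -0.05 (SE 0.11). With the 3′ minus 5′ covariate the difference was 0.14 in Anxa1 and -0.40 in Bcl6 (adjusted p = 0.999 each), and with the keratinocyte mean 0.34 (adjusted p = 0.177) and -0.65 (adjusted p = 0.0894) in the same order. Foxo3 differed by -0.30 (adjusted p = 0.0684). Highest in HFD 4 and lowest in ND 3 were 3 of the 26, or 11.5%: Per1 (0.31), Errfi1 (0.31) and Cited2 (0.42), none past the threshold and named after their values were seen.

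Of 18 genes that glucocorticoids hold down, the chemokine Cxcl1 rose by 0.78 (SE 0.12, adjusted p = 0.0224), 0 fell and 17 did not pass, with a median of -0.04. Cxcl1 read 8.79, 8.52, 8.52 and 8.9 in HFD, against 7.77, 7.92 and 8.02 in ND; without ND 3 its difference was 0.84 (adjusted p = 0.0657). The call for Cxcl1 was also lost without HFD 3 (adjusted p = 0.0518) or HFD 4 (adjusted p = 0.0663). ND 4 read 8.41, below every HFD array. For Cxcl1 the fit with the RNA integrity covariate gave 0.83 (adjusted p = 0.999). The cytokine Il6 (-0.39, adjusted p = 0.0551) and the chemokine Ccl2 (-0.24, adjusted p = 0.177) had lower values in HFD, on the other side of 0 from Cxcl1. Of 9 genes of steroid supply and clearance, 0 passed in limma, with 1 at an unadjusted p under 0.05. This was the mineralocorticoid receptor gene Nr3c2, whose product also binds glucocorticoids, with a difference of -0.50 (SE 0.16, adjusted p = 0.0994). Cyp11b1 (-0.06, adjusted p = 0.526) and Abcb1b (-0.14, adjusted p = 0.552) were next by p-value in that list.

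**Figure D5:**
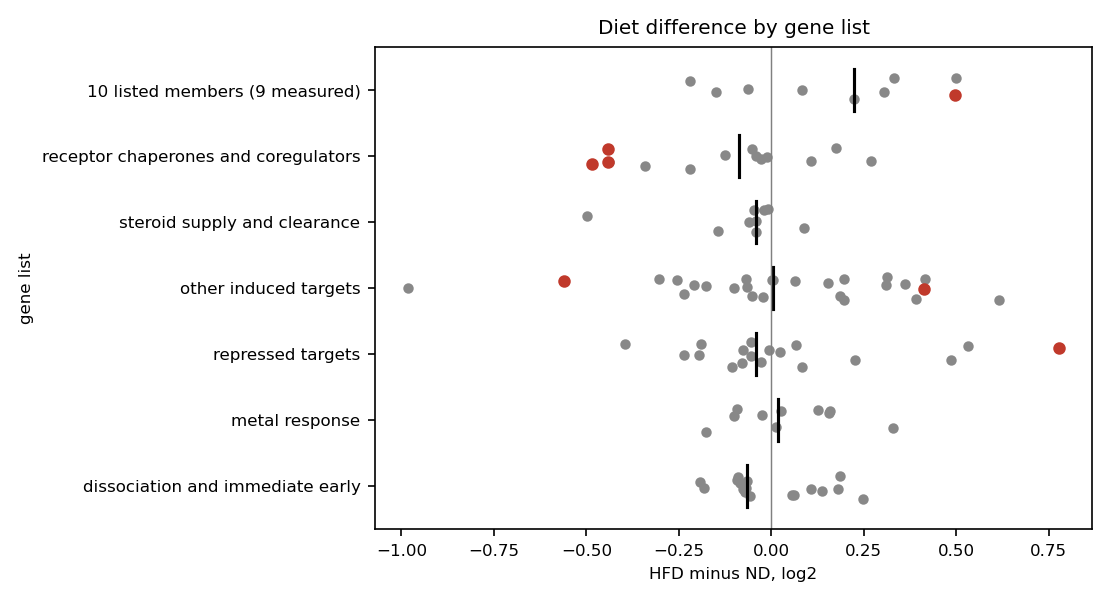
HFD minus ND in log2 (horizontal axis) of each measured gene in 7 lists (one per line, points spread vertically for sight); red points passed at an adjusted p under 0.05 and black bars are medians. The median is 0.22 in the 9 glucocorticoid genes and lies between -0.09 and 0.02 in the 6 other lists.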

How the data were processed

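The deposited values are log2 signals of 45141 probe sets on 8 arrays. The authors made them with RMA and the affy package, per the submitters' processing notes; versions and settings are not given in the sources used here. No further scaling was applied. Gene names came from the annotation of the platform (28898 probe sets with 1 gene symbol), with symbols updated by Entrez identifier through a GRCm38.p6 table, and a gene is represented by its brightest probe set over the 7 arrays compared. The 17097 genes were fitted in limma 3.58.1 (R 4.3.3; lmFit, eBayes with trend), and all probe sets in a second fit. The number of arrays limits the precision. The fit was tested on simulated data. No 2 arrays were duplicates (smallest SD of a pair's difference 0.165).

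The members and lists were chosen with earlier results of these data known. Named are all members, list genes past the threshold and, where fewer than 3 passed, those of smallest p up to 3; others were chosen after their values were seen. Start windows come from RefSeq (GRCm38.p6). Figures were drawn with matplotlib 3.10.9.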

Additional observations from a re-analysis of the deposited data

Results flagged for a closer look

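In the 4 HFD arrays, 1 of the 9 genes and 2 of the 23 probe sets had a value far from the others by Dixon's criterion, and chance gives about 1 in 20 such groups. The main probe set of Klf9 had a gap of 0.833 of its range, because HFD 2 read 11.33 while the other HFD arrays read 11.53 to 11.57. A dim probe set of Nr3c1 had a gap of 1, because HFD 4 read 5.97 and the other HFD arrays all read 6.05, a spread of 0.08 in all.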

How the results depend on the processing

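Over 22 alternatives, no member passed as lower in any (0, with 0 to 2 at an unadjusted p under 0.05). Sgk1 was the 1 member higher as reported, and its difference stayed positive in all 22. Many of these could not turn its sign, since its diets do not overlap or the setting leaves the difference as it was. The count of members higher, of their probe sets past the threshold and of the other pathway genes (1, 2 and 6 as reported) was 0, 0 and 0 with ND 4 included, with the 3′ minus 5′ covariate, with the keratinocyte covariate, at a threshold of 0.01, and with ND 3 and HFD 4 both left out. At a threshold of 0.10 the counts were 2, 3 and 13, among genes above the median level 2, 3 and 12 (fewer genes tested), and with the mean of probe sets the pathway count was 1. Leaving out each array gave 0 to 1, 0 to 2 and 0 to 7. At an unadjusted p under 0.05 the alternatives gave 0 to 3, 1 to 11 and 2 to 29, and 604 to 4192 genes in the whole table. The genes called in the whole table numbered 914, against 6 with ND 4, 20 with the keratinocyte covariate, 0 with the 3′ minus 5′ covariate, 400 with the mean of probe sets, 485 without ND 2, 1387 above the median level, 1947 at 0.10 and 5 at 0.01.

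The labels do not say whether specimen numbers pair the mice. Deviations of same-numbered arrays from their diet mean correlated at -0.18, -0.29 and -0.05 over genes. This cannot decide it, since arrays of unlike number were not compared. With the replicate block, 0 members, 0 probe sets and 0 pathway genes passed (1 in the whole table), and Sgk1 differed by 0.47. The direction turned for Fkbp5 (-0.15), Zbtb16 (-0.27) and Mt1 (0.0017) with the 3′ minus 5′ covariate, for Zbtb16 (-0.038), Mt1 (0.079) and Med1 (0.0048) with the mean of probe sets, and for Zbtb16 (-0.022) without ND 3 and HFD 4. The cause was not tested.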
